A study of Mus musculus with 24 samples.

Results

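Estradiol given after ovariectomy was compared with vehicle in the dentoalveolar complex, the tooth-bearing alveolar bone with its teeth, here abbreviated DAC. By the sample titles, 4 libraries came from ovariectomized mice given estradiol (OVXE2) and 4 from ovariectomized mice given vehicle (OVX), so that 8 of the 24 libraries of the series entered the comparison. All mice were female wild-type C57BL/6J, aged 11 weeks at the start, with surgery on day 0. From day 4 the OVXE2 mice received 1 µg of estradiol benzoate a day under the skin in 100 µL of corn oil, and the OVX mice the oil alone. Every mouse, in all groups, carried a silk ligature on the second upper molars of both sides from day 7 until collection on day 14, which induces periodontitis. A comparison with unligated tissue was therefore not possible. The other groups of the series, used here for reference, were the DAC of sham-operated mice given vehicle (Sham, 4 libraries) and gingiva, the gum around the teeth, of Sham, OVX and OVXE2 mice (4 libraries each). The study asked how estrogen loss and replacement alter the transcriptomes of periodontal tissues. Whether each replicate was a separate mouse is not stated in the labels, so the p-values measure the spread between these libraries only.

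Estradiol acts mainly through the estrogen receptors, nuclear receptors that bind DNA response elements or other transcription factors and change the transcription of target genes such as the progesterone receptor gene. In bone, estrogen is known for restraining osteoclasts and for lowering the production of B lymphocytes in marrow, and estrogen loss has the opposite effects. Alveolar bone holds marrow spaces, blood vessels, bone cells and the periodontal ligament, so bulk RNA from the DAC mixes all of them. In bulk RNA, fewer cells of a type and less RNA per cell cannot be told apart.

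The 8 libraries held 23697984 to 29248358 counts in genes, and the DAC Sham libraries 14771830 to 24923126. Markers matched the labelled tissue. The dentin gene Dspp lay between 367 and 943 CPM (counts relative to library size, scaled by TMM) in the 8 libraries, the osteocyte gene Sost between 159 and 280 CPM, and 15 osteoblast genes together took 10.9 to 15.7% of counts. The enamel gene Amelx was at 0 in 3 of the 8 libraries. Epithelial keratins and other epithelial markers took 0.135 to 1.11% of counts, with the highest value in OVXE2 1, against 9.83 to 12.4% in gingiva. Markers of nasal and oral glands stood apart in 1 library, with 14.1% of counts in OVX 1, 0.325 to 1.83% in the other OVX libraries and 0.467 to 0.951% in OVXE2. Brain neuron markers took 0.00834 to 0.0284% in OVX and 0.00847 to 0.0204% in OVXE2. The other-strand share, that is gene reads lying on the strand not used for counting, was under 5% in OVX 1, OVX 2 and OVXE2 4, and 5.69 to 8.26% in the other 5 libraries.

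Of 13617 genes tested with edgeR, 290 passed a Benjamini-Hochberg adjusted p of 0.05, or 2.13%. Estradiol was accompanied by a rise of 92 genes (0.676%) and a fall of 198 genes (1.45%). Among the called genes the falls were the larger changes. The fallen genes were also lower in level, with a median log2 CPM of 3.63 over the 8 libraries, against 5.34 for the risen genes. Among the fallen genes 122 changed at least 2-fold and 34 at least 4-fold, with a median log2 change of −1.21, whereas 25 risen genes reached 2-fold and 9 reached 4-fold, with a median of 0.64. The median over all tested genes was 0.02, with 7500 of them higher in OVXE2 and 6117 lower. The ranges of the OVX and OVXE2 values did not overlap in any of the 92 risen genes and in 194 of the 198 fallen genes, against 6.73% of all tested genes without overlap, 3.22% upward and 3.51% downward. The calls were made from these same values, so the separation is not separate evidence for them. The plot of log2 change against p shows both arms.

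**Figure D1:**
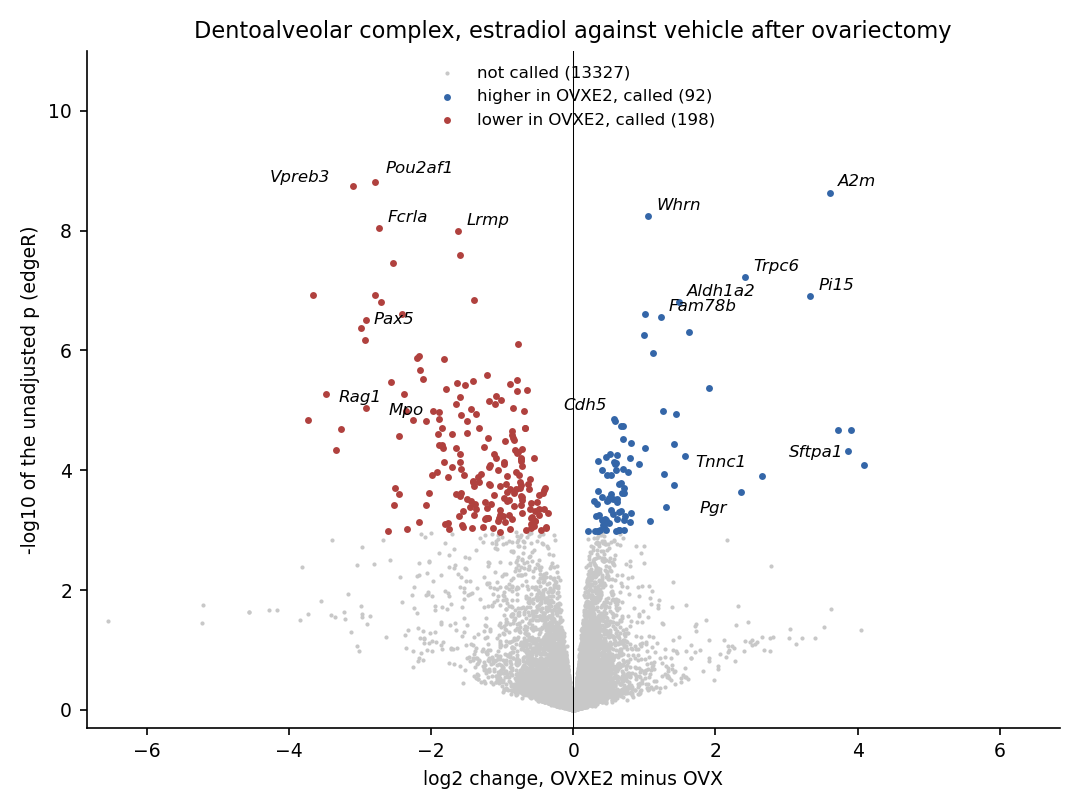
Each point is 1 of 13617 tested genes of the DAC, with the log2 change of OVXE2 against OVX on the x axis and −log10 of the unadjusted edgeR p on the y axis. The 198 fallen genes (red) reach further from 0 than most of the 92 risen genes (blue), and A2m, Pi15, Trpc6 and Sftpa1 stand apart on the right.

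The largest rises fell on secreted inhibitors, an ion channel and genes that were near the detection limit without estradiol. A2m (ENSMUSG00000030111, chr6:121635376-121679227) encodes alpha-2-macroglobulin, which traps proteases of many classes. Its level was 4.75, 4.14, 4.29 and 7.51 CPM in OVX 1 to 4 and 61.5, 77.4, 49.9 and 64.01 CPM in OVXE2 1 to 4, which is 3.60 ± 0.22 (SE) in log2 units (edgeR adjusted p = 1.06e-05). The lowest OVXE2 library lay far above the highest OVX library, and the Sham libraries, at 9.01, 11.2, 12.4 and 12.3 CPM, lay between the groups. Pi15 (ENSMUSG00000067780, chr1:17601901-17630939) encodes a secreted trypsin inhibitor. It rose from 6.11, 3.32, 2.70 and 6.78 CPM to 46.5, 58.6, 34.6 and 51.9 CPM, by 3.34 ± 0.29 (log2, SE, edgeR adjusted p = 0.000142). Here the Sham libraries, at 6.30, 7.12, 5.53 and 5.45 CPM, lay within or close to the OVX range. The neighbouring gene Crispld1, which encodes a protein of the same CAP domain family, rose by 0.62 (edgeR adjusted p = 0.0217), from 6.25 to 8.25 CPM in OVX to 10.5 to 11.5 CPM in OVXE2. Leaving out OVX 2, OVX 3, OVXE2 1, OVXE2 2 or OVXE2 4 took the adjusted p past the threshold, at most to 0.0778. Among 19 protease inhibitors tested, A2m and Pi15 rose and Cst7, a cystatin of cytotoxic and phagocytic cells, fell by 2.16 on the log2 scale, with a median over the list of 0.19.

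Trpc6 (ENSMUSG00000031997, chr9:8544142-8680741), a calcium-permeable channel opened by diacylglycerol, and Pgr (ENSMUSG00000031870, chr9:8899833-8968611), a nuclear receptor whose gene estrogen is known to induce, lie next to each other on chromosome 9 with 219091 bases between them. Trpc6 stood at 6.79, 7.08, 4.33 and 5.85 CPM in OVX and at 34.7, 38.9, 27.6 and 27.7 CPM in OVXE2, a log2 change of 2.42 ± 0.20 (SE, edgeR adjusted p = 9.13e-05). Pgr stood at 1.24, 0.328, 0.695 and 0.964 CPM in OVX and at 6.43, 4.43, 2.25 and 3.61 CPM in OVXE2, a change of 2.37 ± 0.45 (log2, SE, edgeR adjusted p = 0.0183). No library of one group reached the range of the other for either gene. The Sham levels were low as well, 7.9999, 9.62, 8.50 and 5.96 CPM for Trpc6 and 0.970, 1.03, 0.437 and 0.563 CPM for Pgr. Pgr rested on few counts, 85 in all OVX libraries and 455 in all OVXE2 libraries. Leaving out OVX 3, OVX 4 or OVXE2 1 ended the call, at an adjusted p of at most 0.0661. Among the other ion channels the pacemaker channel Hcn4 rose by 1.28 on the log2 scale (edgeR adjusted p = 0.0114), and the potassium channels Kcnk2 and Kcnk1 by 0.68 and 0.72. Leaving out OVX 4 or OVXE2 4 ended the call of Kcnk2 (at most 0.0667), and leaving out any of 8 of the 12 libraries of the fit ended that of Kcnk1 (at most 0.115). These 4 were the called members of 33 ion channels, against 2.13% of all tested genes called, and the list had a median change of 0.01.

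The 250 bases upstream of the RefSeq starts of these neighbours (GRCm38.p6, written 5′ to 3′ on the strand of the gene) are shown because the genes rose together; capitals mark matches to the motifs searched.
Trpc6, chr9:8543892-8544141, + strand: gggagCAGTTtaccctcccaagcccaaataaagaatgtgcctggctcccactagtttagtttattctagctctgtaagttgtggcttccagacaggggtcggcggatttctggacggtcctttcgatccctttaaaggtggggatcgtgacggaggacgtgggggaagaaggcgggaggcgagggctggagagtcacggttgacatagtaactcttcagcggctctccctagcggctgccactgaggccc
Pgr, chr9:8899583-8899832, + strand: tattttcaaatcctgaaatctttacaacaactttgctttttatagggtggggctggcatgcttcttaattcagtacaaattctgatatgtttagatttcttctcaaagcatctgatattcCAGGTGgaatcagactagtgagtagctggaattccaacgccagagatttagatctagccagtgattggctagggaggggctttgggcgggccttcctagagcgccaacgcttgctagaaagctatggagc
Motifs were searched on both strands in the upstream bases of 10012 promoters of tested genes, of which 68 belonged to risen and 160 to fallen genes. The full estrogen response element, GGTCANNNTGACC, was in none of the 10012 windows, so it cannot set risen genes apart from the others. The half-site AGGTCA, which shares the letters GGTCA with this element, was in 3 of the 68 risen promoters (4.41%). It was in 20 of the 160 fallen (12.5%) and 11.2% of all promoters. The risen share thus rests on 3 promoters. The E-box CACCTG, whose complement is in capitals for Pgr, was in 23.5% of risen, 21.9% of fallen and 16.6% of all promoters. The MYB core AACTG, matched on the other strand for Trpc6, was in 33.8% of risen, 41.9% of fallen and 34.5% of all promoters. These matches describe the letters of the windows and not binding.

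Further rises were seen in genes of varied roles. Sftpa1 (ENSMUSG00000021789, chr14:41131782-41136452), the surfactant protein A collectin best known from lung, had the largest rise of the genes named by rule. Its counts were 14, 4, 4 and 48 in OVX 1 to 4 and 324, 217, 263 and 342 in OVXE2 1 to 4. In CPM these were 0.559, 0.164, 0.163 and 1.60 against 11.4, 8.08, 11.8 and 11.99, a log2 change of 4.09 ± 0.69 (SE, edgeR adjusted p = 0.00911), and the Sham libraries held 2.83, 1.35, 0.728 and 0.986 CPM. All OVXE2 libraries lay at a similar level, and OVX 4 was the highest of the OVX libraries. Tnnc1 (chr14:31208312-31211729), the troponin C of slow and cardiac muscle, rose from 0.319, 0.819, 0.613 and 1.70 CPM to 5.52, 4.06, 6.30 and 6.03 CPM, by 2.65 ± 0.47 (log2, SE, edgeR adjusted p = 0.0118). Of 14 skeletal muscle markers 13 were lower in OVXE2 and 1 was higher, the slow myosin gene Myh7 with a change of 1.38 (edgeR adjusted p = 0.752). None was called, and their summed share was 0.190 to 0.544% in OVX and 0.0471 to 0.471% in OVXE2.

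Aldh1a2 (ENSMUSG00000013584), which makes retinoic acid, stood at 13.9, 14.4, 10.5 and 16.03 CPM in OVX and 42.8, 39.6, 37.9 and 33.5 CPM in OVXE2, and was the called member of 16 retinoid genes, which had a median of 0.14. Mgl2, a galactose-binding lectin of macrophages and dendritic cells, stood at 7.66, 9.34, 9.20 and 11.2 CPM in OVX and 21.2, 19.1, 21.2 and 20.3 CPM in OVXE2. Replicates lay close together in Fam78b and Whrn. Fam78b (ENSMUSG00000060568), of unclear function, stood at 42.3, 45.5, 51.1 and 45.1 CPM in OVX and 107, 107, 111 and 107 CPM in OVXE2, and Sham at 60.8, 38.8, 49.7 and 47.8 CPM. Whrn (ENSMUSG00000039137), which encodes the scaffold protein whirlin of hair cells and neurons, stood at 20.2, 21.8, 21.01 and 19.8 CPM in OVX, 42.1, 43.8, 42.7 and 42.999 CPM in OVXE2 and 23.6, 20.5, 24.3 and 21.8 CPM in Sham. Both rose, with log2 changes of 1.23 ± 0.12 and 1.05 ± 0.07 (SE, edgeR adjusted p = 0.000210 and 1.98e-05), and the 4 OVXE2 libraries differed from each other far less than from OVX.

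The other named rises had fewer counts or a wider spread. Asb4, an adaptor of ubiquitin ligases, rose from 3.63 to 4.45 CPM to 11.4 to 14.4 CPM. Plppr5, a membrane protein of neurite outgrowth, rose from 3.59 to 6.99 to 13.9 to 15.9 CPM, and Tenm4, a teneurin adhesion receptor, from 18.9 to 26.8 to 44.3 to 71.4 CPM. Tmem86a, a lysoplasmalogenase, rose from 49.5 to 103 to 172 to 303 CPM, with Sham 1, at 164 CPM, close to the OVXE2 range. Ppef1, a calcium-binding phosphatase, rose from 0.998 to 2.13 to 3.16 to 4.28 CPM and lost its call without 7 of the 12 libraries, up to an adjusted p of 0.0851.

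Below the level required for naming, chosen here after their values were seen, 4 genes had rises as large. The homeobox gene Evx1 (chr6:52313498-52318378) had 2, 2, 3 and 11 counts in OVX 1 to 4 and 67, 52, 62 and 57 in OVXE2 1 to 4, a log2 change of 3.72 ± 0.54 (SE, edgeR adjusted p = 0.00377). Its antisense neighbour Evx1os, which overlaps it by 1335 bases on the other strand, had 2, 9, 1 and 8 counts against 87, 73, 73 and 76, a change of 3.91 ± 0.56 (SE). Counting used strand, and both genes were at 0.0971 to 0.705 CPM in Sham, so that OVXE2 alone held over 50 counts of each in every library. The receptor phosphatase Ptprq had 9 counts in all 4 OVX libraries together and 141 in OVXE2, a change of 3.87 ± 0.61 (SE, edgeR adjusted p = 0.00658), and the serotonin receptor Htr1d had 61 and 233, a change of 1.91 ± 0.23. These 4 kept their calls whichever of the 12 libraries was left out.

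Of 23 steroid receptor and estrogen target genes, 3 rose (Pgr, Stc2 and Agt), 3 fell (Myb, Ltf and Esr1) and the median change was −0.02. Over all tested genes 0.676% rose and 1.45% fell. Agt, which encodes angiotensinogen, went from 44.5, 38.2, 34.1 and 38.6 CPM in OVX to 61.04, 52.5, 80.4 and 61.1 CPM in OVXE2 (edgeR adjusted p = 0.0480) and lost its call without 10 of the 12 libraries, up to an adjusted p of 0.132. Esr1, the gene of estrogen receptor alpha, stood at 23.1, 22.2, 23.99 and 23.3 CPM in OVX and 12.3, 19.95, 15.7 and 15.01 CPM in OVXE2, and lost its call without 11 of the 12 libraries, up to an adjusted p of 0.160. The calls of Stc2 and Ltf were lost without 6 and 9 of the 12 libraries, up to an adjusted p of 0.0834 and 0.114. Several members of this list have other known roles. Myb is a factor of blood progenitors and lactoferrin (Ltf) a granule protein of neutrophils, and both are counted again with those cells. The membrane receptor gene Gper1 had a change of 0.06 and was not called, and Wnt4, a target in reproductive tissue, had 0.69 with an edgeR adjusted p of 0.144.

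Most genes of B cell precursors fell. All 10 tested were lower in OVXE2, against 6117 of all 13617 tested genes, and their median log2 change was −2.81. Called fallen were 8, against 1.45% of all genes. The recombinase genes Rag1 (ENSMUSG00000061311, chr2:101638282-101649501) and Rag2, which cut and join immunoglobulin gene segments, are adjacent on chromosome 2 and fell together. Rag1 stood at 30.1, 17.4, 15.98 and 15.1 CPM in OVX and 1.51, 2.16, 0.585 and 2.74 CPM in OVXE2, a log2 change of −3.48 ± 0.43 (SE, edgeR adjusted p = 0.00167). Rag2 had 89, 84, 76 and 88 counts in OVX and 11, 8, 4 and 4 in OVXE2, a change of −3.66 ± 0.32 (SE). The ranges were far apart for both, and Sham lay between them, at 9.74, 9.30, 7.77 and 4.46 CPM for Rag1 and 20 to 54 counts for Rag2, with total counts of the Sham libraries also lower.

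Vpreb3 (ENSMUSG00000000903, chr10:75943057-75949657), another gene of the B cell precursor list, stood at 16.7, 25.6, 23.99 and 17.3 CPM in OVX and 2.11, 2.38, 2.52 and 2.74 CPM in OVXE2, with the OVXE2 libraries within 1 CPM of each other. Pax5 (ENSMUSG00000014030), the factor that commits cells to the B lineage, fell from 32.1, 20.8, 25.9 and 22.6 CPM to 2.49, 4.32, 1.84 and 4.14 CPM. Cd79a and Cd79b, the signalling chains of the B cell receptor, fell by 2.71 and 2.41 on the log2 scale, and Bach2, a repressor of plasma cell fate, by 1.40, a call lost without OVXE2 1 (adjusted p = 0.0546). The 2 members that were not called were Ebf1 and Cd24a. Ebf1, a factor of B cells and of stromal and adipose cells, went from 42.5 to 33.2 CPM in mean (edgeR adjusted p = 0.254), and Cd24a, found on many cell types, from 331 to 192 CPM (0.189).

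Among 10 genes of mature B cells and plasma cells, 4 were called, all lower, with a median of −1.29, against 1.45% of all tested genes called fallen. Pou2af1 (ENSMUSG00000032053, chr9:51213708-51240080), a coactivator of octamer factors, stood at 32.9, 30.5, 32.8 and 33.3 CPM in OVX, 3.72, 5.70, 3.91 and 5.44 CPM in OVXE2 and 22.7, 19.4, 20.2 and 15.5 CPM in Sham. Its 3 groups did not overlap. Spib, Fcrla and Cd22 fell by 2.53, 2.73 and 1.21 on the log2 scale; Cd22 lost its call without 8 of the 12 libraries, up to an adjusted p of 0.113. The plasma cell genes were not called: Jchain, the joining chain of secreted antibodies, went from 35.03 to 42.5 CPM in mean (edgeR adjusted p = 0.980), Prdm1 from 29.1 to 34.2 CPM (0.647) and Xbp1 from 329.8 to 271 CPM (0.556). Other B lineage genes outside the lists fell too. Siglecg and Fam129c, named by rule among the largest falls, fell by 2.56 and 2.79 (edgeR adjusted p = 0.00135 and 0.000142). The kinase gene Blk, named after its values were seen, fell by 1.85 (edgeR adjusted p = 0.00576).

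The upstream sequences of Rag1 and Pou2af1 (RefSeq, GRCm38.p6, strand of the gene) are given as examples of genes that fell together.
Rag1, chr2:101649533-101649782, − strand: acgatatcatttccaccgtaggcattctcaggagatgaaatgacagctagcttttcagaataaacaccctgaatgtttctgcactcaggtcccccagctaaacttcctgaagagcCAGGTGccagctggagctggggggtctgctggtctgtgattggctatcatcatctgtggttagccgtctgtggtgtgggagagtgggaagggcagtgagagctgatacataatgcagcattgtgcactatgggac
Pou2af1, chr9:51213440-51213689, + strand: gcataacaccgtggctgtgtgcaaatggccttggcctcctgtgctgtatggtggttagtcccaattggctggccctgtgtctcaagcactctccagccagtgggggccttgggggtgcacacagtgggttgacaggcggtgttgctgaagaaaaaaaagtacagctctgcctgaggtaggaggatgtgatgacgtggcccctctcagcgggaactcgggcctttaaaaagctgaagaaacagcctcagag
Rag1 holds the complement of the E-box 135 to 130 bases before its start (capitals), and Pou2af1 no match to the motifs searched. The core of EBF1, CCCNNGGG, was in 13.8% of fallen, 14.7% of risen and 15.9% of all promoters. The core of PU.1, GAGGAAG, was in 18.1% of fallen, 17.6% of risen and 11.1% of all promoters.

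**Figure D2:**
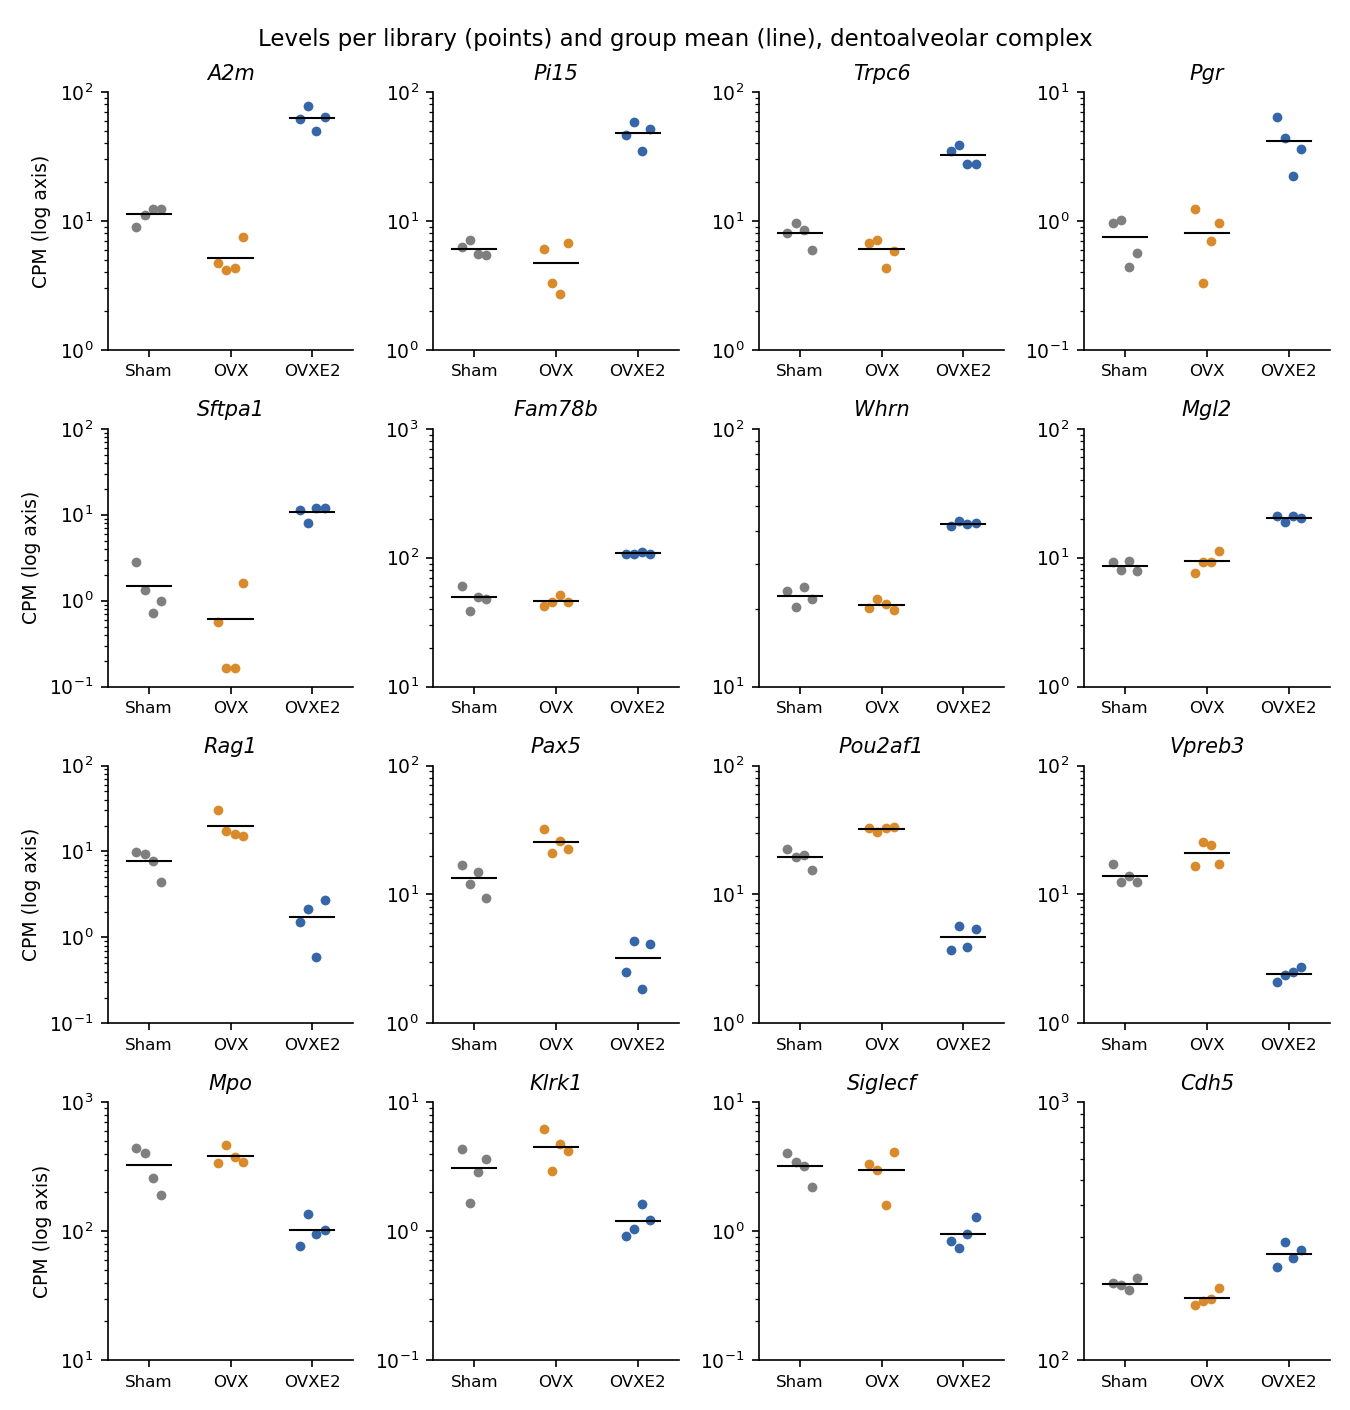
Each panel shows 1 gene, with the CPM of each DAC library as a point on a log axis and the group mean as a line, for Sham, OVX and OVXE2 (4 libraries each). A2m to Mgl2 and Cdh5 are higher in every OVXE2 than in every OVX library, and Rag1 to Siglecf are lower.

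Most granule genes of immature neutrophils fell as well. Of 14 tested all were lower in OVXE2, against 6117 of all 13617 tested genes, and 10 were called fallen, against 1.45%. The median over these 14 was −1.45. Their summed share of counts was 0.369 to 0.532% in OVX, 0.159 to 0.226% in OVXE2 and 0.272 to 0.560% in Sham. Prtn3, proteinase 3 of primary granules, stood at 92.1, 178, 171 and 139 CPM in OVX and 26.003, 41.4, 53.2 and 34.9 CPM in OVXE2 (edgeR adjusted p = 0.00427), and its neighbour Elane fell with it. Mpo, myeloperoxidase, stood at 338, 462, 375 and 344 CPM in OVX and 77.2, 136, 95.1 and 102 CPM in OVXE2. Camp, the cathelicidin of secondary granules, stood at 247, 462, 361 and 452 CPM in OVX and 90.4, 106, 234 and 125 CPM in OVXE2, the highest in OVXE2 3, and lost its call without 6 of the 12 libraries, up to an adjusted p of 0.101. Prss57, Ngp and Ltf lost theirs without 5, 5 and 9. The factor genes of this stage, Cebpe and Gfi1, fell by 1.60 and 1.17 on the log2 scale; leaving out OVXE2 1 or OVXE2 2 ended the call of Gfi1, at most at 0.0594. Of 11 mature neutrophil genes none was called and the median was −0.32, with a change of 1.06 for the chemokine receptor Cxcr1 and −0.69 for the alarmin S100a8 (edgeR adjusted p = 0.189 and 0.329). Without OVXE2 3, 3 of the list were called, among them S100a8 with an adjusted p of 0.0138.

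Lists of the other blood cells were mostly lower. Over all 13617 tested genes 6117 were lower and 1.45% were called fallen. Of 17 stem and progenitor genes 5 fell (Myb, Ikzf1, Cebpe, Flt3 and Gfi1), 12 were lower and the median was −0.35. Ikzf1, the lymphoid factor Ikaros, stood at 85.7, 73.5, 59.8 and 74.7 CPM in OVX and 21.997, 36.04, 23.8 and 31.6 CPM in OVXE2. The stem cell receptor Kit and the marker Cd34, also of vessels, had changes of 0.10 and 0.50, not called. Of 12 dendritic cell genes 4 fell (Ccr7, Cd209a, Flt3 and Irf8), with a median of −0.62. Irf8, a factor of monocytes and dendritic cells, stood at 56.1, 46.6, 62.1 and 55.4 CPM in OVX and 30.3, 33.2, 33.5 and 28.8 CPM in OVXE2. Of 15 T cell genes 2 fell (Cd2 and Lck), with a median of −1.02; Lck lost its call without 6 of the 12 libraries, up to an adjusted p of 0.0724.

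NK cell and cytotoxic genes were all lower, 12 of 12, against 6117 of all 13617 tested genes, with a median of −1.76. Called fallen were 4, against 1.45% of all genes. The count ran from 2 to 6 without 1 library at a time, with 6 without OVX 2. The called chemokine gene Ccl5 lost its call without 6 of the 12 libraries, up to an adjusted p of 0.0696. Klrk1, the activating receptor NKG2D, stood at 6.19, 2.91, 4.78 and 4.19 CPM in OVX and 0.914, 1.04, 1.62 and 1.23 CPM in OVXE2, a log2 change of −1.91 ± 0.33 (SE, edgeR adjusted p = 0.0108). Its neighbours Klrd1 and Klrc1 fell by 1.55 and 2.52, and lost their calls without 9 and 6 of the 12 libraries, up to an adjusted p of 0.1497 and 0.0835. The cytotoxic granule genes Gzmb and Prf1 went from 6.95 to 2.05 and from 1.26 to 0.313 CPM in mean, not called (edgeR adjusted p = 0.219 and 0.0520). The summed level of the list was 32.9 to 60.6 CPM in OVX, 12.2 to 16.6 CPM in OVXE2 and 30.4 to 52.7 CPM in Sham, so that OVXE2 lay below both.

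Of 12 genes of mast cells, basophils and eosinophils 11 were lower, 5 were called and the median was −1.46. Over all 13617 tested genes 6117 were lower and 1.45% were called fallen. Siglecf, a receptor of eosinophils, stood at 3.31, 2.99, 1.59 and 4.12 CPM in OVX and 0.843, 0.745, 0.945 and 1.30 CPM in OVXE2 (edgeR adjusted p = 0.0187), and the basophil protease Mcpt8 at 6.59, 7.08, 9.28 and 4.09 CPM and 0.633, 2.61, 1.12 and 0.561 CPM. The mast cell genes Mcpt4 and Cpa3 and the IgE receptor chain Fcer1a fell by 1.37, 1.25 and 1.55 on the log2 scale. Each of these 5 calls was lost without at least 4 of the 12 libraries, up to an adjusted p of 0.129 for Cpa3. Without 1 library at a time the count ran from 0 to 5, and it was 1 without OVX 1 and Sham 2. The eosinophil granule genes Epx and Prg2 went from 35.7 to 7.79 and from 132 to 32.1 CPM in mean, not called (edgeR adjusted p = 0.148 and 0.225). Genes of the Klr, Mcpt and Gbp families have close copies. The deposited tables list reads that map to several places on a separate summary line, apart from the gene counts. These reads took 7.23 to 13.5% of all reads in OVX, with OVX 1 highest, and 6.40 to 9.22% in OVXE2.

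No member was called among 13 erythroid and 11 megakaryocyte genes, with medians of −0.64 and −0.41. All 13 erythroid genes were lower, against 6117 of all 13617 tested genes. Their summed share overlapped between the groups, 0.183 to 0.375% in OVX and 0.0944 to 0.273% in OVXE2. Of 14 monocyte and macrophage genes 1 fell, the chemokine receptor Ccr2, from 84.1, 56.1, 56.6 and 87.2 CPM to 22.6, 30.6, 28.5 and 31.4 CPM, with a median of −0.15 over the list.

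**Figure D3:**
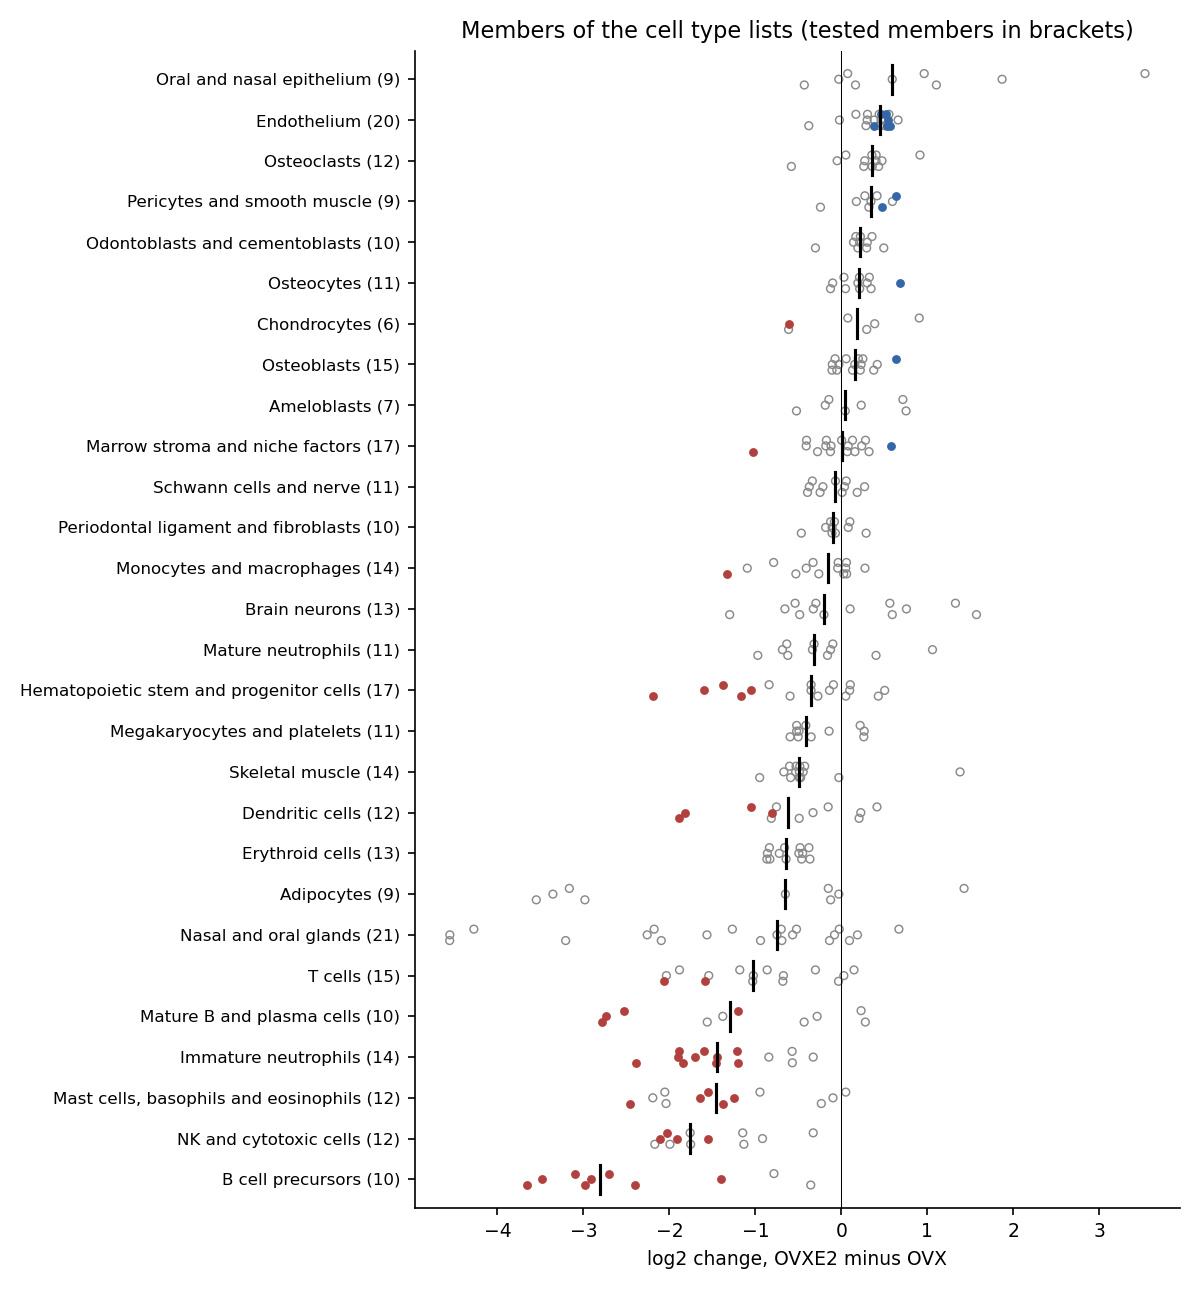
Log2 changes of OVXE2 against OVX for the members of 28 cell type lists, sorted by their median (black bar), with called members filled (blue higher, red lower) and the others open. The 10 genes of B cell precursors lie lowest with a median of −2.81, and the 20 endothelial genes have a median of 0.45.

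Endothelial genes were mostly higher, by small amounts. Of 20 tested, 18 were higher, 15 without overlap of the groups, 6 were called and the median was 0.45. Over all 13617 tested genes 7500 were higher, 3.22% lay higher without overlap and 0.676% were called risen. Cdh5 (ENSMUSG00000031871), the junction cadherin of endothelium, stood at 164, 169.7, 172 and 189.7 CPM in OVX and 229, 287, 249 and 267 CPM in OVXE2, a log2 change of 0.57 ± 0.08 (SE, edgeR adjusted p = 0.00306), with Sham at 199, 196, 186 and 207 CPM. The receptor genes Tie1 and Kdr and the adhesion gene Mcam rose by 0.52, 0.54 and 0.53. Tek and Nos3 rose by 0.38 and 0.47, each at an edgeR adjusted p of 0.0480, and lost their calls without 11 and 9 of the 12 libraries, and Kdr without 5. The lymphatic and sinusoidal genes Lyve1 and Stab2 had changes of 0.17 and −0.38, not called. The summed endothelial share was 0.138 to 0.180% of counts in OVX, 0.204 to 0.235% in OVXE2 and 0.179 to 0.202% in Sham, with no overlap between OVX and OVXE2.

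Angiogenic and Notch genes shared part of this list. Of 26, 24 were higher, against 7500 of all 13617 tested genes, and the median was 0.29. Called risen were 5 (Aplnr, Tie1, Dll4, Kdr and Tek), against 0.676% of all genes. Aplnr (ENSMUSG00000044338), the apelin receptor of vessels, stood at 109, 124, 152 and 146 CPM in OVX and 198, 241, 274 and 221 CPM in OVXE2 (log2 0.81 ± 0.12, SE, edgeR adjusted p = 0.00542). Its ligand gene Apln had a change of 0.66 with an edgeR adjusted p of 0.0523. Dll4, a Notch ligand of arterial and sprouting endothelium, stood at 16.05, 18.1, 19.9 and 19.2 CPM in OVX and 23.5, 27.6, 30.1 and 28.1 CPM in OVXE2. The Notch targets Hey1 and Heyl had changes of −0.11 and 0.23 and were not called. Of 9 pericyte and smooth muscle genes Rgs5 and Abcc9 rose, by 0.47 and 0.64, with a median of 0.34; Abcc9 lost its call without 10 of the 12 libraries, up to an adjusted p of 0.128. Basement membrane collagen genes Col4a1 and Col4a2, which share a promoter region and were named after their values were seen, rose by 0.62 and 0.58 (edgeR adjusted p = 0.00728 and 0.00889), with Col4a1 going from 745 to 901 CPM to 1067 to 1455 CPM.

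**Figure D4:**
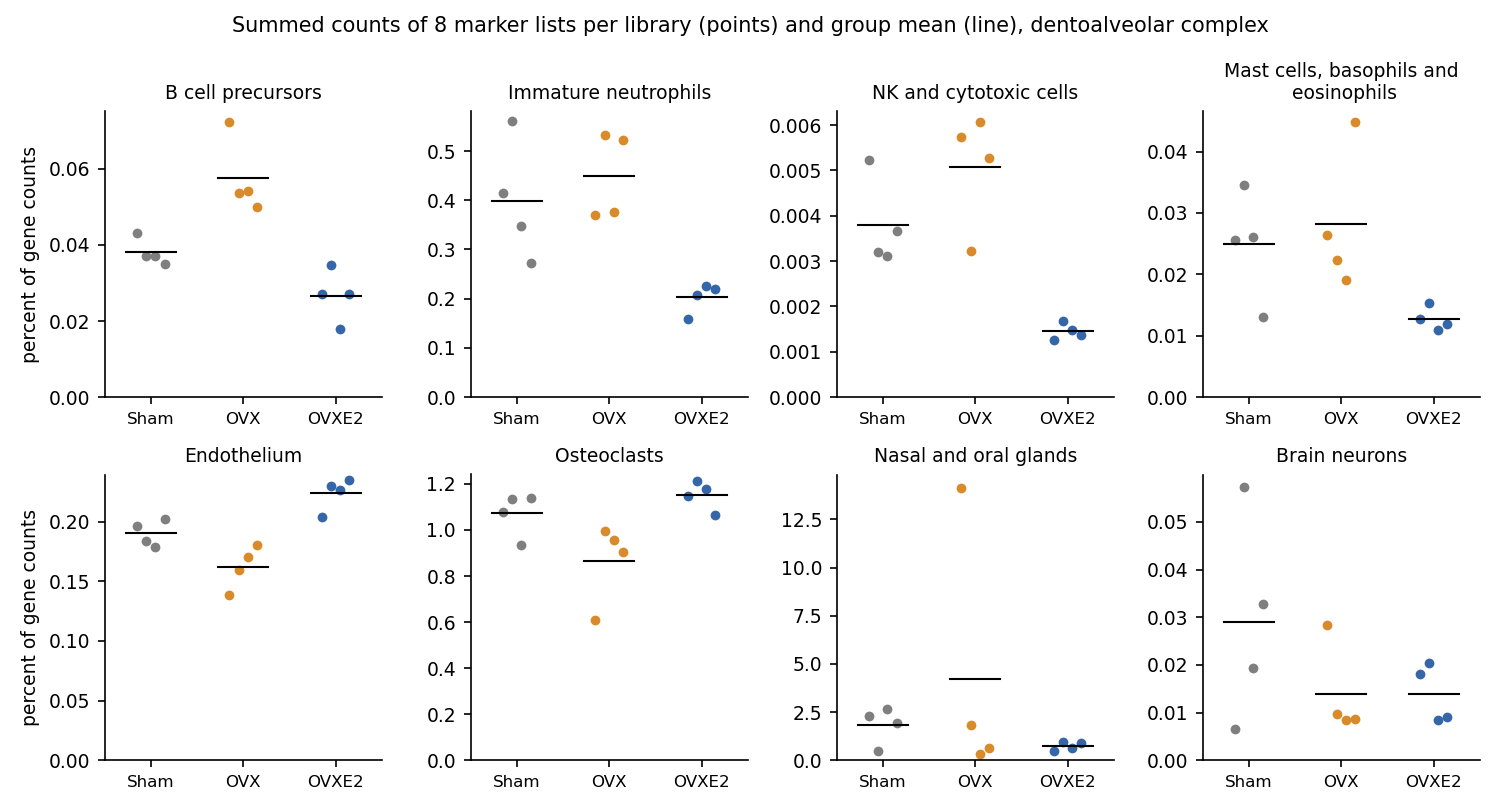
Summed counts of 8 marker lists as a percentage of gene counts, 1 point per DAC library and the mean as a line. OVXE2 lies below OVX for the 4 blood cell lists of the upper row and above it for endothelium and osteoclasts, while the gland share of OVX 1 reaches 14.1% and brain neuron shares overlap. Cd24a, found on many cell types and not called, makes up a large part of the B cell precursor sum. That sum is not particular to these cells: it took 0.106 to 0.141% of counts in gingiva and 0.0179 to 0.0723% in the DAC.

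Few bone and tooth cell genes were called. Of 12 osteoclast genes 10 were higher, against 7500 of all 13617 tested genes, and 5 were higher without overlap of the groups, against 3.22%. None was called by edgeR and the median was 0.36. Their sum was 6434 to 10160.4 CPM in OVX and 10201.7 to 12576 CPM in OVXE2. By an unadjusted p under 0.05 9 of the 12 passed, against 1366 (10%) of all 13617 genes, and with DESeq2 2 were called. The lysosomal protease Ctsk stood at 2069.7, 3182, 3295 and 2834 CPM in OVX and 3572, 3868, 4024 and 3133 CPM in OVXE2, with OVX 1 lowest. Calcr, the calcitonin receptor, went from 3.21 to 6.05 CPM in mean (edgeR adjusted p = 0.189). The RANKL gene Tnfsf11, the main osteoclast differentiation signal, stood at 25.7, 36.1, 29.8 and 34.1 CPM in OVX and 25.5, 33.1, 32.7 and 39.5 CPM in OVXE2 and overlapped. Its receptor gene Tnfrsf11a had a change of 0.35 (edgeR adjusted p = 0.187). Of 17 genes of osteoclast control 1 was called, Irf8. As a share of counts the osteoclast list took 0.608% in OVX 1, the library with the most gland counts, 0.903 to 0.994% in the other OVX libraries and 1.07 to 1.21% in OVXE2.

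Of 15 osteoblast genes the bone sialoprotein gene Ibsp was called, a call that leaving out any 1 of the 12 libraries ended, and of 11 osteocyte genes Kcnk2. Col1a1, the main collagen of bone, had a change of −0.03 and the osteocalcin gene Bglap of −0.11. Genes of odontoblasts (10), ameloblasts (7) and periodontal ligament and fibroblasts (10) had no called member, with medians of 0.22, 0.05 and −0.09. Dspp and Dmp1 had changes of 0.29 and 0.19. Acan, the cartilage proteoglycan, fell by 0.61 (log2), and its call was lost without 6 of the 12 libraries, up to an adjusted p of 0.1002. The Wnt receptor gene Lrp4, which binds sclerostin and was named after its values were seen, rose from 158, 176, 188 and 193 CPM to 271, 345, 275 and 273 CPM (edgeR adjusted p = 0.0102). Of 30 Wnt genes Lef1 fell, by 0.75, and of 27 TGF-beta and BMP genes the BMP antagonist Chrdl1 fell, by 0.98, with medians of 0.08 and 0.10. Lef1 kept its call without each library, and Chrdl1 lost it without 5 of the 12, up to an adjusted p of 0.0702.

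Among 17 stroma and niche genes, which include signals that hold blood cells in marrow, 2 were called, against 2.13% of all tested genes. The niche chemokine Cxcl12, the B lymphocyte growth factor Il7 and the stem cell factor Kitl had changes of −0.18, 0.13 and 0.16, none called. Il7 stood at 1.88, 1.72, 1.31 and 1.80 CPM in OVX and 1.90, 1.79, 1.75 and 1.89 CPM in OVXE2, with overlapping ranges. Of 17 stroma and niche genes Dll4 rose and the B cell survival factor Tnfsf13b fell, by 1.03, a call lost without 8 of the 12 libraries, up to an adjusted p of 0.113. Cxcr4, the receptor for Cxcl12 on blood cells, fell from 96.3, 99.7, 102 and 119 CPM to 55.2, 63.5, 63.8 and 77.2 CPM (edgeR adjusted p = 0.00375).

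Of the inflammatory genes, chemokines, receptors and interferon response genes held calls with all libraries, all of them falls. Falls were called in 198 of all 13617 tested genes (1.45%). Of 40 chemokines and receptors 5 fell (Ccr2, Cxcr4, Ccr7, Ccl5 and Cxcl10) and the median was −0.27. Of 19 interferon response genes 3 fell (Igtp, Gbp2 and Cxcl10), with a median of −0.12. The count ran from 0 to 8 without 1 library at a time, with 8 without OVX 2, and was 6 with DESeq2. Gbp2 stood at 214, 49.4, 169 and 126 CPM in OVX and 50.5, 36.3, 41.1 and 38.6 CPM in OVXE2. Its OVX 2 value lay at the top of the OVXE2 range, and the groups overlapped. The calls of Igtp, Gbp2 and Cxcl10 were each lost without 10 of the 12 libraries, up to an adjusted p of 0.152, and without OVX 1 and Sham 2 none of the list was called. Il1b, Il6 and Il17a, cytokines of periodontitis, had changes of −0.16, 0.15 and −0.54 with edgeR adjusted p of 0.981, 0.986 and 0.940. Of 29 cell cycle genes 27 were lower, against 6117 of all 13617 tested genes, and the median was −0.21. E2f2 and Mcm5 fell by 1.11 and 0.39, and their calls were lost without 5 and 10 of the 12 libraries.

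Because 3 of the 8 libraries had the lower other-strand share, the comparison was repeated with the libraries above 5% alone (2 OVX and 3 OVXE2, with 3 Sham). There 39 genes passed, all among the 290, with 6 risen and 33 fallen. B cell precursor genes held 7 calls, mature B cell genes 3, immature neutrophil genes 1, and dendritic, NK, mast cell and endothelial genes 0. Without OVX 1, the library with the most gland counts, and Sham 2, the one with the fewest counts, 215 genes passed, with 8 calls for B cell precursors, 11 for immature neutrophils, 2 for NK cells and 4 for endothelium. With the gland genes left out of the fit 283 genes passed, 279 of them among the 290, and with the set of other-strand share as a term 240 passed, 230 of them among the 290. With that term B cell precursors held 8 calls, immature neutrophils 9, NK cells 3, mast cells, basophils and eosinophils 3, endothelium 3 and interferon response genes 0.

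The comparisons with Sham share the OVX or the OVXE2 libraries with the one above and are given for their values only. Between OVX and Sham no gene was called by edgeR in the DAC (0%), where 437 genes (3.21%) had an unadjusted p under 0.05, and between OVXE2 and Sham 143 were (1.05%). Trpc6 differed by −0.41 between OVX and Sham and by 2.01 between OVXE2 and Sham, Rag1 by 1.33 and −2.15, Pou2af1 by 0.73 and −2.05, and Cdh5 by −0.18 and 0.39 (log2). For Rag1 and Pou2af1 the Sham level lay between OVX and OVXE2, for Trpc6 close to OVX.

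In gingiva the same comparison called no gene by edgeR among 12680, the smallest adjusted p being 0.108, while 1766 genes (13.9%) had an unadjusted p under 0.05. Without gingiva OVX 3, 60 genes were called. Of the genes that rose in the DAC 84 were tested in gingiva, and 71 of them (84.5%) were higher in OVXE2 there, against 48.5% of all genes tested in both tissues. Of 165 fallen genes tested, 130 (78.8%) were lower, against 51.5%. The gingival changes were small, with medians of 0.12 and −0.20. Picking genes by their call in the DAC by itself favours larger changes in the DAC. With an unadjusted p under 0.05, 13 of the 84 were higher and 36 of the 165 lower, against 7.52% and 6.4% of all gingival genes. Gingiva and DAC may come from the same mice, which the labels do not say.

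The difference between tissues passed for 27 of 14209 genes (0.19%), all of them among the 290, with 10 more positive (0.0704%) and 17 more negative (0.12%) in the DAC. Trpc6 changed by 2.42 in the DAC and 0.04 in gingiva, Pi15 by 3.34 and 0.20, and Fam78b by 1.23 and 0.04. The B lineage gene Fam129c changed by −2.79 and −0.20, Lrmp by −1.62 and −0.05, and Dpp4, a surface peptidase, by −1.82 and 0.32. The difference was not called for Mgl2, which changed by 1.13 and 1.20, or for Cd79a, which changed by −2.71 and −2.07. The gingival change of Cd79a had an SE of 1.19 and an edgeR adjusted p of 0.448, with 2.67 ± 4.09 CPM (SD, n = 4) in gingival OVX. Most of the called genes were lower in gingiva than in the DAC without ovariectomy as well. In Sham, 77 of the 92 risen genes (83.7%) and 175 of the 198 fallen genes (88.4%) were higher in the DAC than in gingiva, against 54.3% of all genes, with median differences of 1.49, 2.21 and 0.13 (log2).

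**Figure D5:**
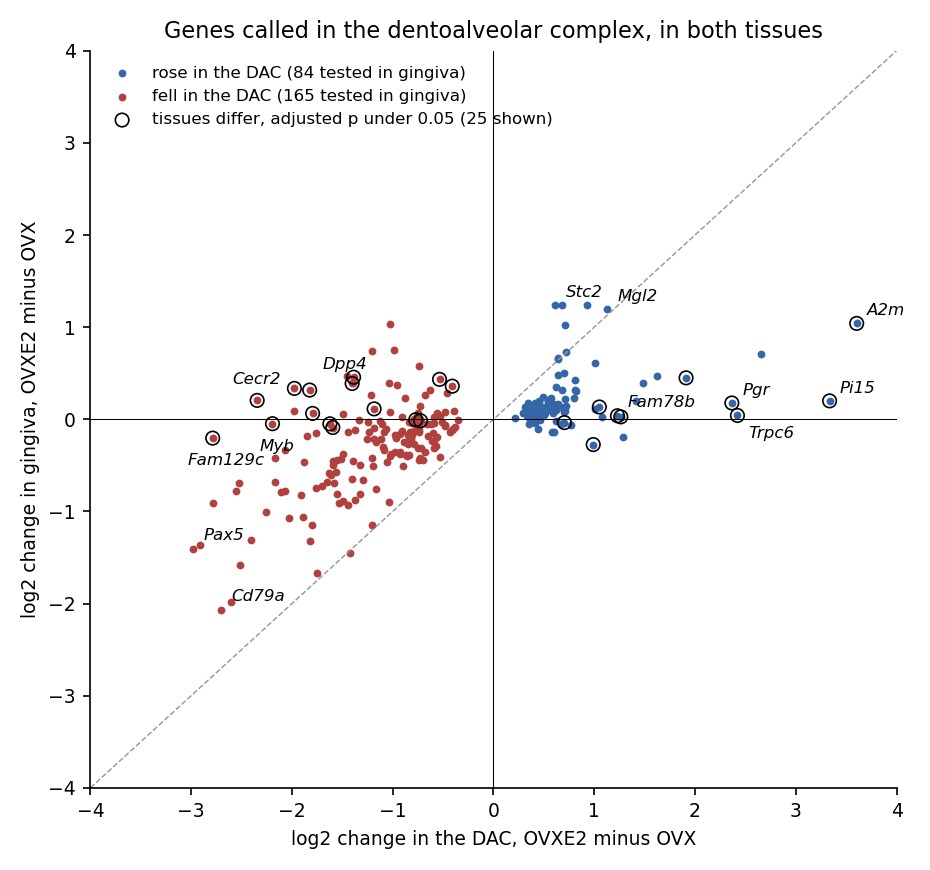
Genes called in the DAC and tested in gingiva (84 risen in blue, 165 fallen in red), with the log2 change of OVXE2 against OVX in the DAC on the x axis and in gingiva on the y axis; the dashed line marks equal change and circles mark genes whose change differed between tissues. Most points lie closer to 0 in gingiva than in the DAC, and Trpc6, Pi15 and Pgr lie near the horizontal axis. The genes were picked by their call in the DAC, which by itself favours larger changes there.

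Some called genes lay next to each other. Of 13592 pairs of adjacent tested genes 7 had both members risen (0.0515%) and 14 both fallen (0.103%), and 1 had opposite calls. Taken singly, 0.676% of all tested genes were called risen and 1.45% fallen. These are shares of genes and not of pairs, so they give no background for the pair shares. The fallen pairs included neighbouring genes of blood cells, such as Mcpt4, Mcpt8 and Ctsg on chromosome 14, Klrd1, Klrk1 and Klrc1 on chromosome 6, Siglecf, Siglecg and Nkg7 on chromosome 7 and Prtn3 with Elane on chromosome 10. The risen pairs included, besides Trpc6 with Pgr and Pi15 with Crispld1, Tnnc1 with Sema3g, 6130 bases apart (Sema3g lost its call without 9 of the 12 libraries, up to an adjusted p of 0.114), and Shox2 with Rsrc1, which overlap by 382 bases on opposite strands. Shox2, a homeobox gene of the limb, jaw and heart, stood at 47.6, 56.3, 53.1 and 46.9 CPM in OVX and 109, 91.7, 95.1 and 109 CPM in OVXE2 (edgeR adjusted p = 0.000339), while Rsrc1 rose by 0.36.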

How the data were processed

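Bulk poly(A) RNA was sequenced in paired-end mode from mouse DAC and gingiva, 24 libraries in 6 groups of 4, per the labels' protocols. The submitters' processing notes name fastp, STAR, DESeq2 and the build GRCm38 (mm10), without versions. The authors deposited 1 table of whole-number counts per gene and library, with columns for either strand and each strand; the column for reads opposite to the first read's strand was used, and summary lines of unassigned reads were left out. Libraries were grouped by their titles, and no 2 libraries of a group were alike within sampling noise.

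Counts were analysed in R 4.3.3 with edgeR 4.0.16 (filterByExpr, TMM scaling, robust quasi-likelihood test, Benjamini-Hochberg adjustment, calls at an adjusted p under 0.05). The 12 DAC libraries entered 1 fit with the group as its term, the 12 gingival libraries another, and all 24 libraries a further fit for the difference between tissues. CPM and percentages were computed from the counts here. The script was tested on simulated data. Gene positions are GENCODE M21 (GRCm38) and promoters RefSeq (GRCm38.p6). The genes listed lie on 13 chromosomes, and others are not analysed here, which left 605 of 807 symbols in the gene lists.

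Members and gene lists were chosen with earlier results of these data known. Named genes were the 15 largest rises and 15 largest falls among called genes without overlap and with a mean log2 CPM of at least 1, up to 4 called members per list by p (2 where none was called), a fixed set of bone, cytokine and niche genes, and the 8 smallest p for the tissue difference. Other genes named were chosen after their values were seen. Some members of the lists are counted but not reported here by name. Alternatives were other scalings, filters, tests (DESeq2 1.42.0, limma 3.58.1), strands and sets of libraries, and the replicate number as a block.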

Additional observations from a re-analysis of the deposited data

Results flagged for a closer look

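In groups of 4 libraries, 15 of 238 groups of CPM values (6.30%) had 1 library far from the other 3 by Dixon's criterion, which chance alone would give in about 1 of 20 groups. In OVX, the high library was OVX 1 for Rag1 (30.1 CPM), Dpp4 (18.8 CPM) and the gland genes Bpifb5 (1290 CPM) and Bpifb9b (99747 CPM). It was OVX 3 for Cd79a (59.2 CPM), and OVX 4 for Rgs5 (529.9 CPM) and Il6 (8.55 CPM). In OVXE2, the epithelial genes Krt10 (2218 CPM) and Ivl (2.71 CPM) were high in OVXE2 1. Fcrla (4.14 CPM) and Kcnk2 (126 CPM) were high in OVXE2 4, Klrd1 (1.75 CPM) and Cst7 (3.19 CPM) in OVXE2 3, and Adamts17 (14.0 CPM) in OVXE2 2. Sftpa1 was low in OVXE2 2 (8.08 CPM).

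The effect of estradiol differed between tissues for 15 of the named genes by the edgeR interaction test. Of these, 8 had been named for their small p in this same test (Fam129c, Trpc6, Pi15, Dpp4, Myb, Ifi209, Lrmp and Skint3). The DAC effect minus the gingival effect (log2) was positive for Pi15 (3.14), A2m (2.57), Trpc6 (2.38), Pgr (2.20), Tenm4 (1.24), Fam78b (1.19) and Whrn (0.92). It was negative for Rag1 (−4.28), Fam129c (−2.58), Cecr2 (−2.54), Dpp4 (−2.14), Myb (−2.13), Skint3 (−1.84), Lrmp (−1.57) and Ifi209 (−1.50). Rag1 was too low in gingiva to be tested there alone, at 0.117 ± 0.0888 CPM in OVX and 0.213 ± 0.0786 CPM in OVXE2 (SD, n = 4), so the size of its difference rests on few gingival counts.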

How the results depend on the processing

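The count of 290 called genes moved to 591 with DESeq2 (234 risen, 357 fallen, holding all 290), to 189 in a fit of the 8 OVX and OVXE2 libraries (179 shared) and to 39 with the libraries of higher other-strand share, an alternative chosen after seeing the data. Without 1 library at a time it ran from 176 (without OVXE2 4) to 290, with 178 without OVXE2 1 and 186 without OVX 4. The other alternatives gave 215 to 296. In gingiva the count of 0 became 2 without a filter and 2 with the replicate block, and ran from 0 to 60 without 1 library at a time, with 60 without gingiva OVX 3. The tissue difference of 27 genes ran from 15 (without gingiva OVXE2 1) to 33.

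Of 82 named genes that were called, 54 kept their call without each library in turn. The fit with the replicate block called 250 DAC genes and 33 for the tissue difference, and 15 named genes lost their call under it. Replicate numbers did not pair the OVX and OVXE2 libraries, whose same-numbered deviations correlated at 0.217, −0.2429, 0.3114 and −0.3485, with 2 of 4 closest to their own number.

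Changes of sign were seen in genes that were not called. Without 1 library at a time the log2 change ran from −0.29 (without OVXE2 1) to 4.06 for Krt10, from −0.0414 to 0.159 for Tnfsf11, from −0.348 to 0.00066 for Il1b, from −0.0905 to 0.344 for Il6, from −0.109 to 0.157 for Sost, from −0.465 to 0.125 for Bglap and from −0.114 to 0.0266 for Col1a1. With higher other-strand libraries the changes were 2.82 for Bpifb5 and 3.23 for Bpifb9b (−4.27 and −4.55 with all libraries), −0.0711 for Tnfsf11 and −0.291 for Il6. Without OVX 1 and Sham 2 they were −0.0276 for Tnfsf11 and −0.0177 for Sost, and with library size scaling 7.08e-05 for Col1a1. The cause was not tested. Genes with under 100 counts in a group, such as Pgr, Evx1 and Ptprq, are limited by depth.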
